A study of Mus musculus with 36 samples.

Results

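Cancer-associated fibroblasts (CAFs) sorted from WT mouse melanomas were compared with whole WT melanomas, to find which genes are enriched in the fibroblasts and which are missing from them relative to the tumour they live in. The members were taken by their labels: 4 WT libraries of sorted CAFs and 6 WT libraries of bulk melanoma, 10 of the 36 libraries of the series. All 10 mice carried the triallelic model, in which the Tyr-CreERT2 transgene recombines conditional alleles, Braf CA among them, in melanocytes after 4-hydroxytamoxifen is applied to the back skin, and all were WT for macroH2A. Their genetic background was mixed, with 129S as the main part beside B6 and FVB. The tumours are polyclonal, and they were taken at day 50 after induction. The WT CAFs came from 2 male and 2 female mice induced at an age of 10 weeks, and the WT bulk melanomas from 2 male and 4 female mice in 3 library batches of 2. The same 2 kinds of library from mice labelled dKO, for double knockout of the macroH2A genes H2afy and H2afy2, served for comparison: 4 of dKO CAFs (2 male and 2 female mice) and 6 of dKO bulk melanoma (5 male and 1 female). These mice had the same melanoma model and mixed background, and their tumours were also taken at day 50. The dKO CAFs came from mice induced at an age of 10 weeks, and the dKO bulk melanomas were in 3 library batches of 2.

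CAFs are the connective-tissue cells of a tumour. They build its extracellular matrix of collagens, proteoglycans and glycoproteins, remodel it with proteases, and secrete cytokines and growth factors that act on tumour, immune and endothelial cells. Skin fibroblasts carry the PDGF receptor CD140a, encoded by Pdgfra, on their surface, and the CAFs here were sorted on that protein after fresh tumours had been cut up and digested with enzymes. A bulk melanoma of the skin holds melanoma cells together with epidermis, hair follicles, muscle, vessels, immune cells and the fibroblasts themselves, so the CAFs are also a part of what they are compared with. In bulk samples, fewer cells of a type and less RNA per cell cannot be told apart.

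The groups differed in more than cell type. The CAF libraries started from 80 ng of RNA of dissociated and sorted cells, the bulk libraries from 1 µg of RNA of snap-frozen tissue, the poly-A selection used products of different makers, the library kit differed in version, and the mice were different animals. These differences coincide with the groups and cannot be told apart from cell type. Estimated counts in genes totalled 20164075 to 27584374 per WT CAF library and 22245177 to 80382315 per WT bulk library. Mitochondrially encoded genes took 1.91% to 2.59% of the counts in WT CAFs and 3.65% to 7.24% in WT bulk melanomas. The 50 most abundant genes took 24.1% to 27.6% in the CAFs and 14.5% to 17.6% in the bulk melanomas, and 15389 to 16117 genes had 10 or more counts per CAF library against 17487 to 20670 per bulk library. Log2 CPM (a gene's counts relative to the library total after scaling by TMM factors) correlated at 0.984 to 0.994 between CAF libraries, at 0.960 to 0.984 between bulk libraries and at 0.833 to 0.862 between a CAF and a bulk library, and the first principal component, with 80.1% of the variance, separated the groups. No library stood nearer to the other group than to its own.

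Of 18633 genes tested, 3470 (18.6%) were higher and 4863 (26.1%) lower in WT CAFs, at an edgeR adjusted p under 0.05 and a log2 fold change beyond 0.75. Beyond a log2 fold change of 2 there were 1240 (6.65%) higher and 2765 (14.8%) lower genes. The CAF libraries lay wholly above the bulk libraries for 4307 genes (23.1%) and wholly below for 5363 (28.8%). The median log2 fold change of all genes tested was −0.11, which is the level against which the medians of gene groups below are to be read. Against the 2 bulk libraries of each batch alone, 3528, 3384 and 3134 genes were higher and 4320, 4468 and 3909 lower. So much of the transcriptome differed that a gene group is described here by how many of its members passed, beside these shares.

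Pdgfra, the gene behind the sort, is a check on the labels and no finding. It had 564, 408, 755 and 595 CPM in the 4 WT CAF libraries, against 71.4 to 114 CPM in the WT bulk melanomas (median 88.9), a log2 fold change of 2.72 (SE 0.16). Every CAF library exceeded every bulk library. Of the 24 tested members of a list of fibroblast identity genes, 23 were higher and none lower in CAFs, with a median log2 fold change of 2.35. Twist1, a transcription factor of dermal mesenchyme, had 158, 137, 135 and 142 CPM in CAFs against 11.8 to 17.2 in bulk (median 14.7, log2 fold change 3.28, SE 0.12, adjusted p = 2.74e-08). Pi16, a marker of adventitial fibroblasts, had 202, 164, 418 and 288 CPM against 16.9 to 32.9 (log2 3.37). Loxl1, which crosslinks elastin, Pdpn, the mucin-like membrane protein podoplanin, and Fap, a membrane serine protease that marks activated fibroblasts, were higher by log2 3.40, 3.07 and 2.36. The abundant genes Thy1, Dcn and Vim were higher by 2.43, 1.85 and 1.70, and none of the 6 genes just named overlapped between the groups. S100a4, a calcium-binding protein also made by leukocytes and tumour cells, was the list's only tested member that did not pass (229, 251, 227 and 127 CPM in CAFs against 81.5 to 253 in bulk; log2 0.15, adjusted p = 0.66). The labelled cell type thus held on its defining markers in all 4 CAF libraries.

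The study named 4 single-cell CAF clusters by the genes Meg3, Fbln1, Wif1 and Lrrc15, and all 4 were higher in the sorted CAFs, by log2 2.01, 3.12, 3.31 and 2.06. Wif1 did not pass against the bulk libraries of batch 3 alone (log2 2.70, adjusted p = 0.053). These genes were picked by the study in the same tumour model, so their direction is not independent evidence. Fbln1, a matrix glycoprotein, had similar values in the 4 CAF libraries (543, 469, 446 and 480 CPM), whereas Meg3, a long non-coding RNA, had 233, 325, 701 and 829.3 CPM. The Meg3 values of the male mice (the first 2) were below those of the female mice (the last 2). With 2 mice of each sex, this difference was not tested.

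**Figure D1:**
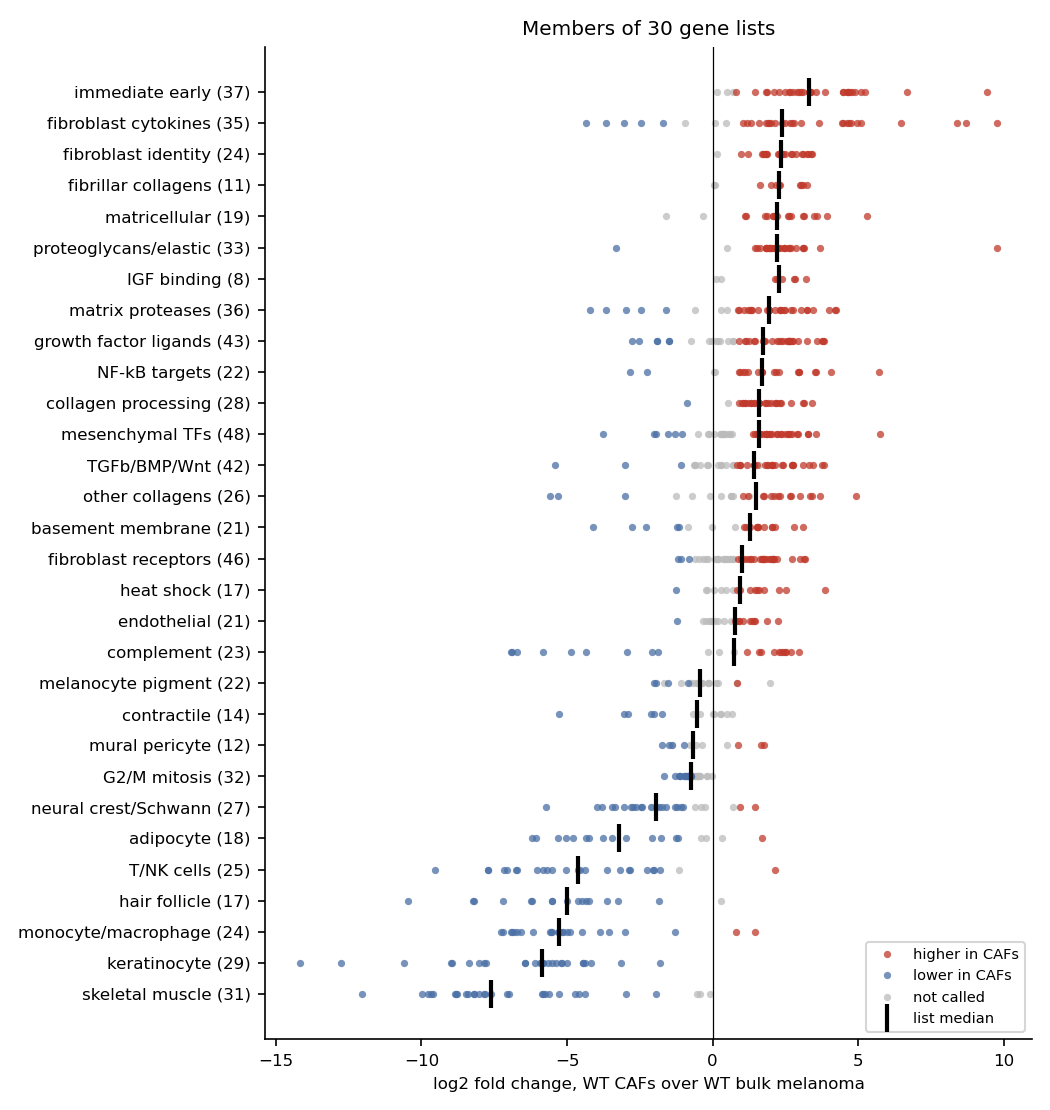
Log2 fold change of WT CAFs over WT bulk melanoma (x axis) for each tested member of 30 gene lists (y axis, number of tested members in brackets), with called genes in colour, other genes in grey and the median of each list as a black bar. Immediate early genes, with a median of 3.33, stand at the top, and skeletal muscle genes, with a median of −7.61, at the bottom.

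Fibrillar collagens, the load-bearing fibres of the dermis and of tumour stroma, were among the most abundant RNAs of the CAFs, with Col3a1 highest of all genes tested in mean TPM (26795 TPM in CAFs and 2034 TPM in bulk). Col1a1, on chromosome 11, had 33700, 30579, 36362 and 37303 CPM in the CAF libraries, against 2240 to 5954 CPM in the bulk melanomas (median 2917, log2 fold change 3.24, SE 0.25, adjusted p = 2.07e-06). The bulk values of Col1a1 were highest in the 2 male mice (5954 and 5881 CPM), still far below the lowest CAF library. Col3a1, which forms fibres together with type I collagen, had 41963, 41644, 55180 and 52704 CPM against 4190 to 6765 (median 5528, log2 3.10). Col1a2, the other chain of type I collagen, was higher by 3.05 and Col5a1, a chain that sets fibre diameter, by 3.00. Of 11 fibrillar collagen genes, 9 were higher and none was lower, with a median of 2.29. Per transcript length, these 11 genes made up 4.60% ± 0.50 of all TPM (counts relative to the library total after division by transcript length) in CAFs and 0.434% ± 0.106 in bulk melanomas (SD, n = 4 and 6).

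The promoter of Col1a2 is shown because type I and type III collagen moved together and because CCAAT boxes, bound by the factor NF-Y, are a known element of collagen promoters. It covers 250 bases before to 50 bases after the RefSeq start, at chr6:4505368-4505667 of GRCm38.p6, plus strand, with CCAAT or its reverse complement in capitals.
Col1a2: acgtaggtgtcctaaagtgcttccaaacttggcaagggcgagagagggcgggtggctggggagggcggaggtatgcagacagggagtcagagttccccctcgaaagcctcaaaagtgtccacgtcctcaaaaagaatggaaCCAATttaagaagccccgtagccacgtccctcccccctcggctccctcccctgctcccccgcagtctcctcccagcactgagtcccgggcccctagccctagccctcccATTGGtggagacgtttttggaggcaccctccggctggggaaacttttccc
The letters CCAAT or ATTGG occurred in 37.4% of the 32851 RefSeq promoters of this length. By gene, they occurred in the promoters of 41.1% of 27025 genes and of 3 of the 8 fibrillar collagen genes that the table held (of 11). This is a description and not a sign of binding. The single Col3a1 promoter of the table did not hold these letters.

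Of the 26 other collagens tested, 15 were higher and 3 lower, with a median of 1.49. Col6a6, a chain of the beaded microfibrils of type VI collagen, had 331, 475, 668 and 651 CPM in CAFs against 7.71 to 31.4 in bulk (median 18.4, log2 4.92, SE 0.30, adjusted p = 3.62e-07). The abundant type VI chains Col6a1, Col6a2 and Col6a3 were higher by 2.33, 2.68 and 3.40, and Col14a1, which lies on the surface of collagen fibres, by 3.69. The 3 collagens that fell were Col17a1, Col20a1 and Col9a3. Col17a1, the transmembrane collagen of the hemidesmosomes of basal keratinocytes, had 5.06, 5.18, 10.3 and 9.83 CPM in CAFs against 213 to 406 in bulk (median 278, log2 −5.30, SE 0.32). Col20a1 had 42.3, 65.1, 15.1 and 29.1 CPM against 608 to 2952 (log2 −5.59), and Col9a3, known from cartilage, was lower by 3.01 on the log2 scale.

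The machinery that modifies, folds, trims and crosslinks collagen moved with it: 26 of 28 genes were higher and 1 was lower, with a median of 1.60. Lox, the enzyme that crosslinks collagen, had 264, 325, 518 and 418 CPM in CAFs against 38.7 to 61.4 in bulk (median 42.5, log2 3.10, SE 0.16). Pcolce, which speeds the removal of the C-propeptide, was higher by 2.16, the collagen chaperone Serpinh1 by 1.45 and the collagen-binding glycoprotein Sparc by 1.00. Adamts3, a procollagen N-proteinase, was higher by 3.15 from a low level (1.82 to 3.82 CPM in CAFs against 0.0391 to 0.942 in bulk). P3h2, a prolyl 3-hydroxylase with a preference for basement membrane collagen, was the gene that fell (log2 −0.87, adjusted p = 0.00086), its groups overlapped, and it lay just under the fold threshold against batch 1 alone (log2 −0.75).

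Of 21 basement membrane genes tested, 13 were higher and 5 lower, with a median of 1.27. Those that rose included chains known from the sheaths of mesenchymal cells, muscle and vessels: Lama2 by 3.10, Lamb1 by 2.80, Nid1, the linker nidogen, by 2.05, and the network chains Col4a1 and Col4a2 by 1.77 and 1.55. Lama2 had 1547, 1330, 1346 and 1650 CPM in CAFs against 125 to 261 in bulk (median 161). Laminin chains known from the anchor of the epidermis were lower, Lama3 by 2.76 and Lamb3 by 4.10 on the log2 scale, with no overlap between groups. Those that fell also included Agrn, the heparan sulfate proteoglycan agrin (log2 −1.24), and Col4a4 (log2 −1.15).

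Proteoglycans and elastic fibre proteins rose nearly without exception, 31 of 33 being higher and 1 lower (median 2.21). Fbn1, the main protein of elastic microfibrils, had 4383, 3655, 5952 and 4761 CPM in CAFs against 298 to 461 in bulk (median 379, log2 3.69, SE 0.15, adjusted p = 4.92e-08). The small leucine-rich proteoglycans Bgn and Lum were higher by 1.84 and 1.85. The hyaluronan synthases split. Has1 had 521, 630, 348 and 479 CPM in CAFs, against 0.153 to 1.01 CPM in bulk melanomas (median 0.615, log2 9.77, SE 0.44), whereas Has3 had 1.18, 1.32, 1.01 and 1.59 CPM against 10.2 to 15.8 (median 12.4, log2 −3.31, SE 0.21). Neither overlapped between the groups, and Has3, the only member of the list that fell, is the form known from epidermis among other tissues. For the rise of Has1, dissociation and cell type cannot be told apart.

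Matricellular proteins sit in the matrix and signal to cells rather than bear load. The list of them used here also held Fn1, a structural matrix glycoprotein. Of its 19 genes, 17 were higher and none was lower (median 2.22). Together the 19 genes, Fn1 included, made up 1.48% ± 0.17 of TPM in CAFs and 0.367% ± 0.040 in bulk melanomas (SD, n = 4 and 6). Ccn1, a secreted protein known to be induced by serum and by stretch, had 1168, 1004, 1366 and 1306 CPM against 20.9 to 43.7 (median 29.5, log2 5.30, SE 0.25). Only the CAFs were dissociated and sorted, so dissociation and cell type cannot be told apart for Ccn1 or the other matrix genes. Fn1, fibronectin, had 10879, 12871, 12388 and 11116 CPM against 800 to 2164 (median 1031, log2 3.13). In CAFs the whole list summed to 29284 to 34123 CPM, so Fn1 was a large part of it. Postn, periostin, differed least among the abundant members (log2 1.15, SE 0.20) and did not pass when an offset for transcript length was added (log2 0.48, adjusted p = 0.11). Spp1, osteopontin, had 4986 and 5946 CPM in the CAFs of the 2 male mice and 2289 and 2219 CPM in those of the 2 female mice, against 36.1 to 635 in bulk (median 191, log2 3.93, SE 0.71, adjusted p = 0.00082). It kept its direction but did not pass against the 2 bulk libraries of batch 3 (log2 2.74, adjusted p = 0.11), one of which held its highest bulk value.

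Among 36 matrix proteases and their inhibitors, 28 were higher and 5 lower (median 1.93). Adamts4, an aggrecanase, had 415, 347, 226 and 317 CPM in CAFs against 12.4 to 21.1 in bulk (median 17.6, log2 4.20, SE 0.18). The collagenase Mmp14 and the gelatinase Mmp2 were higher by 1.94 and 1.95, and Timp1, a tissue inhibitor of metalloproteinases, by 3.25, with 764 and 800 CPM in the CAFs of male mice and 471 and 319 CPM in those of female mice. The 5 that fell were Mmp12, the macrophage elastase (2.41, 2.65, 5.11 and 2.08 CPM against 14.2 to 100, log2 −4.22), Mmp15 (log2 −2.47), Timp4 (−2.96), Adamts20 (−1.59) and Adamdec1 (−3.65).

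**Figure D2:**
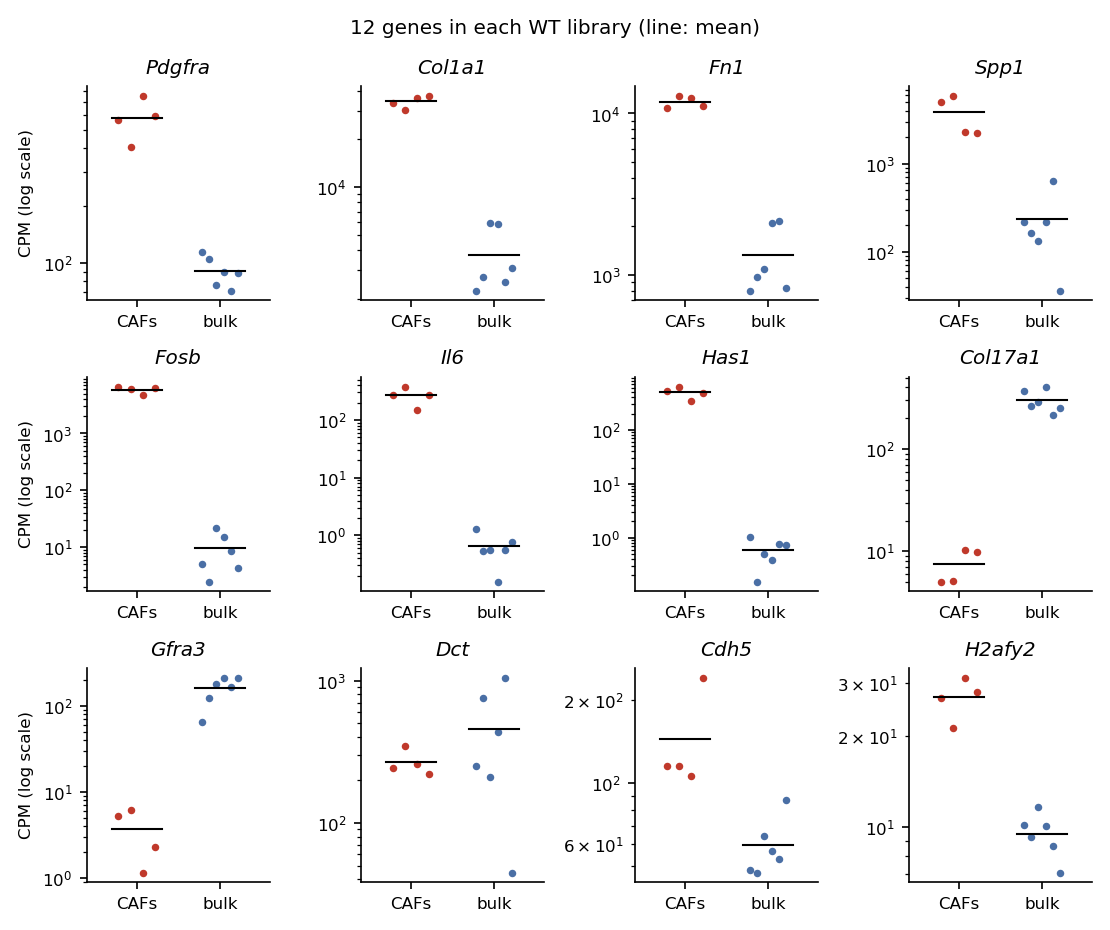
CPM on a log scale (y axis) of 12 genes in each of the 4 WT CAF libraries (left of each panel) and the 6 WT bulk melanoma libraries (right), with the group mean as a line. Pdgfra, Col1a1, Fn1, Spp1, Fosb, Il6, Has1, Cdh5 and H2afy2 lie higher in every CAF library than in any bulk library, Col17a1 and Gfra3 lower, and Dct overlaps.

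Most secreted factors of inflammatory fibroblasts were higher in the dissociated and sorted CAFs than in snap-frozen bulk. For these genes too, dissociation and cell type cannot be told apart, so the values need not be those of CAFs in the tumour. Of 35 cytokines, chemokines and related genes tested, 27 were higher and 5 lower (median 2.37), including 4 of the 10 protein-coding genes with the greatest rise. Il6 had 274, 377, 150 and 268 CPM in CAFs, against 0.157 to 1.27 CPM in bulk melanomas (median 0.553, log2 8.71, SE 0.43, adjusted p = 1.19e-07). The neutrophil-attracting chemokine Cxcl1 had 941, 1250, 539 and 946 CPM against 0.643 to 4.08 (median 2.86, log2 8.39), and Cxcl5, of the same family, 32.9, 48.6, 81.2 and 55.0 CPM against 0 to 1.69 (log2 6.48). Il6 and Cxcl1 were both lowest in CAF replicate 3, where Cxcl5 was highest, and none of the 3 overlapped with bulk. Ccl2, the main attractant of monocytes, was higher by 4.96, Cxcl14 by 2.64 and Cxcl12, the ligand of the receptor CXCR4, by 1.59. The members that fell were Il1a, Il1b, Ccl8, Cxcl16 and Tslp. Il1a, the interleukin-1 of epidermis, had 0.310 to 0.783 CPM in CAFs against 7.25 to 13.5 in bulk (log2 −4.34), Ccl8 had 5.01 to 7.97 against 51.9 to 111 (log2 −3.67), and Il1b, made mainly by myeloid cells, overlapped between the groups (log2 −3.04, adjusted p = 0.0027) and did not pass against bulk batch 3 (log2 −2.03, adjusted p = 0.12).

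The complement genes divided into 11 higher and 9 lower of 23 (median 0.72). C3, the central component, had 244, 180, 334 and 221 CPM in CAFs against 23.9 to 61.8 in bulk (log2 2.67), and Serping1, the C1 inhibitor, 1533, 1355, 1542 and 1541 CPM against 203 to 359 (log2 2.36). C1qa, a chain of C1q known from macrophages, had 0.443 to 1.08 CPM against 51.0 to 131 (log2 −6.93), and C4b fell by 1.88 on the log2 scale.

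Growth factor ligands were higher in 28 and lower in 6 of 43 cases (median 1.72). Hgf, the fibroblast-made ligand of the receptor MET, had 41.5, 34.7, 42.3 and 46.4 CPM in CAFs against 1.84 to 5.38 in bulk (median 2.71, log2 3.83, SE 0.26), and Slit3, a guidance ligand, 1050, 915, 1235 and 908 CPM against 64.4 to 83.8 (log2 3.80, SE 0.14). Igf1 was higher by 1.42. Pdgfa and Pdgfb, ligands of PDGF receptors, fell. Pdgfa had 51.2, 70.5, 26.2 and 29.8 CPM against 153 to 303 (median 214, log2 −2.54, SE 0.22), and Pdgfb 10.0, 13.7, 6.54 and 13.7 CPM against 29.8 to 53.0 (log2 −1.93). For both, no CAF library reached the lowest bulk library. Of the other PDGF genes, Pdgfd was higher (22.8 to 35.3 CPM against 5.32 to 14.4, log2 1.80), and Pdgfc stayed inside the fold threshold (9.91 to 16.7 CPM against 5.70 to 10.7, log2 0.68, adjusted p = 0.011).

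Modulators of TGF-beta, BMP and Wnt signalling were higher in 25 and lower in 3 of 42 cases (median 1.41). The secreted Wnt antagonists of the Sfrp family split, with Sfrp2 at 71.7, 117, 156 and 103 CPM in CAFs against 2.77 to 11.4 in bulk (log2 3.81), Sfrp4 higher by 3.75, and Sfrp5 at 0.691 to 3.19 CPM against 19.9 to 159 (log2 −5.41). Fstl1, a follistatin-like glycoprotein, was higher by 2.14 at 3050 to 4561 CPM in CAFs, and Wnt4 fell by 3.03 on the log2 scale. Of 8 genes that bind insulin-like growth factors, 6 were higher and none lower (median 2.29). Igfbp4 had 4967, 3884, 6090 and 4784 CPM against 548 to 860 (log2 2.83), and Igfbp7 was higher by 2.37. Igfbp3 had 3578 and 4142 CPM in the CAFs of male mice and 1293 and 1436 CPM in those of female mice, against 123 to 358 in bulk (log2 3.19, SE 0.36). Its CAF values divided by sex as those of Spp1 and Timp1 did, which was seen in the values and not tested.

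Among 46 receptors known from fibroblasts, 25 were higher and 3 lower (median 1.02). Mrc2, an endocytic collagen receptor, had 802, 769, 761 and 825 CPM in CAFs against 55.5 to 115 in bulk (median 92.6, log2 3.16), and the collagen-binding integrin Itga11 40.7, 20.2, 53.8 and 44.9 CPM against 2.67 to 8.14 (log2 3.12). Lepr, the leptin receptor, was higher by 2.99, Pdgfrb by 1.76, Axl by 1.29 and Tgfbr2 by 1.19. Il6st, the shared signalling chain of the interleukin-6 family, was higher by 1.43. The 3 that fell were Il6ra, the chain that binds interleukin-6 itself, Il1rap and Il17rc.

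Transcription factors of mesenchyme and of body position were higher in 28 and lower in 6 of 48 cases (median 1.59). En1, which marks the dermal fibroblast lineage of the back, had 18.2, 18.2, 33.0 and 24.7 CPM in CAFs against 0.900 to 2.92 in bulk (median 2.07, log2 3.55, SE 0.30). Prrx1 was higher by 1.87 and Ebf1 by 1.53. Six2 had 0.645 to 2.83 CPM against 0 to 0.0771 (log2 5.73), a low level at which the fold rests on 8 counts over all 6 bulk libraries. The 6 that fell included 4 genes of the Hoxb cluster, among them Hoxb6 (0.829 to 1.68 CPM against 3.39 to 6.74, log2 −2.01) and Hoxb8 (log2 −1.95, adjusted p = 0.0079, groups overlapping, adjusted p = 0.079 against batch 1 alone), with Hoxa7 and Pitx1 (log2 −3.76).

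The list with the highest median of the 42 was that of the immediate early genes, which cells switch on within minutes of stimuli such as serum, injury or stress and which are also known to rise during enzymatic dissociation of tissue. All but 3 of 37 were higher and none was lower, with a median of 3.33, and together they made up 2.30% ± 0.30 of TPM in CAFs and 0.150% ± 0.017 in bulk melanomas (SD, n = 4 and 6). Ccn1 was listed under its older name Cyr61, which matched no gene, so it is not among the 37. Fosb, a subunit of the transcription factor AP-1, had 6638, 6022, 4708 and 6309 CPM in CAFs, against 2.46 to 21.6 CPM in bulk melanomas (median 6.77, log2 9.41, SE 0.49, adjusted p = 1.51e-07). Fos had 4512, 4331, 4006 and 4790 CPM against 21.6 to 63.5 (median 43.5, log2 6.66), and Egr1 4850, 4447, 4079 and 5294 CPM against 91.9 to 162 (log2 5.11). The CAF libraries lay close together for all 3 and nowhere near the bulk libraries. Atf3, a stress-induced factor, was higher by 5.23, the phosphatase Dusp1 by 4.78, Junb by 4.70 and Jun by 4.46. Only the CAFs were dissociated and sorted, so dissociation and cell type cannot be told apart for these genes.

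The promoters of Fos and Has1 are shown, both picked after their values were seen, because the cyclic AMP response element, bound by factors of the CREB and ATF families, is a known element of Fos. Each covers 250 bases before to 50 bases after the RefSeq start in GRCm38.p6, with the core TGACGT or its reverse complement ACGTCA in capitals.
Fos, chr12:85473640-85473939, plus strand: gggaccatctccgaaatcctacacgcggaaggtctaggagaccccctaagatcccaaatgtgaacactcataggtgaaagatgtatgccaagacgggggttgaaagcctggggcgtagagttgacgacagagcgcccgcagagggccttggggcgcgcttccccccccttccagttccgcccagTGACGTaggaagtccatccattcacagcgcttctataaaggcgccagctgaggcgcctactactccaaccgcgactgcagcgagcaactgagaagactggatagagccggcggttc
Has1, chr17:17855139-17855438, minus strand: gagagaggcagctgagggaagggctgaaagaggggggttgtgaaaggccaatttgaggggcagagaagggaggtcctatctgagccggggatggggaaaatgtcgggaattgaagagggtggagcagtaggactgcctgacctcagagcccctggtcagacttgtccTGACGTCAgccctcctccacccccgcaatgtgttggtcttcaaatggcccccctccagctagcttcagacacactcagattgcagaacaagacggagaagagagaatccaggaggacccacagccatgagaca
In Has1 the capitals are a match on each strand, overlapping by 4 bases. The letters occurred in 7.5% of the 32851 promoters. By gene, they occurred in the promoters of 8.4% of 27025 genes and of 10 of the 30 immediate early genes that the table held (of 38). No factor's binding was measured here.

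Heat shock genes, another group known to respond to dissociation, were higher in 10 and lower in 1 of 17 cases (median 0.95). The inducible Hsp70 gene Hspa1a had 448, 499, 400 and 489 CPM in CAFs against 25.3 to 37.2 in bulk (log2 3.87), and its near-identical neighbour Hspa1b was higher by 2.51. Reads of the 2 Hsp70 copies can be exchanged between them, which makes their separate values uncertain. Cryab, the small heat shock protein of muscle and lens, fell (log2 −1.24) with overlapping groups. Targets of NF-kB, the factor activated by TNF and interleukin-1, were higher in 18 and lower in 2 of 22 cases (median 1.71). Tnfaip3, the feedback inhibitor A20, had 491, 547, 217 and 297 CPM against 18.004 to 23.0 (log2 4.08), and Ptx3, a secreted pentraxin, 124, 152, 211 and 136 CPM against 2.21 to 4.46 (log2 5.70). Irf1 was higher by 2.97. Dissociation and cell type cannot be told apart for the heat shock and NF-kB genes either.

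**Figure D3:**
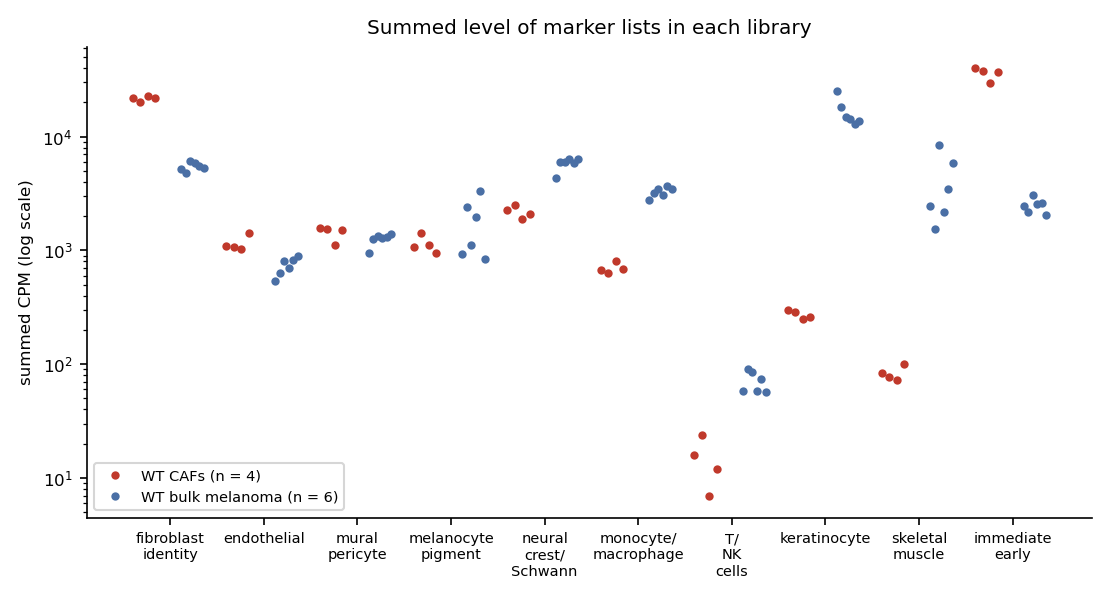
Summed CPM on a log scale (y axis) of the members of 10 gene lists (x axis) in each WT CAF library (red, left) and each WT bulk melanoma library (blue, right). Keratinocyte genes summed to 247 to 298 CPM in CAFs and to 12940 to 24956 CPM in bulk, whereas the melanocyte pigment and mural lists overlapped between the groups.

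Epidermis, hair follicle and muscle were largely absent from the sorted cells. All 29 keratinocyte genes tested were lower in CAFs, with a median log2 fold change of −5.86, and their summed level was 247 to 298 CPM in CAFs and 12940 to 24956 CPM in bulk. Krt5, the keratin of the basal layer, had 19.2, 25.2, 31.5 and 40.2 CPM in CAFs against 1303 to 2689 in bulk (median 1627, log2 −5.86, SE 0.29), and Krt14, its partner, was lower by 6.45. Krt1 and Krt10, of the suprabasal layers, were lower by 10.61 and 7.77 on the log2 scale. Basal keratins were therefore low but present in all 4 CAF libraries. Among 17 hair follicle genes, 16 were lower (median −4.99), with Krt71 of the inner root sheath at 0.421 to 1.06 CPM against 32.2 to 768 and Krt27 at 0 to 0.138 CPM against 12.8 to 338. Bulk melanomas varied widely among themselves for these genes, and CAFs did not.

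Skeletal muscle genes were lower in 28 of 31 cases and higher in none, with a median of −7.61, or −7.07 when genes without a count in CAFs were set at their bound. Myh4, the myosin heavy chain of fast fibres, had 0.0491, 0.301, 0.230 and 0 CPM in CAFs against 31.3 to 1164 in bulk (median 410, log2 −12.06). Ckm, creatine kinase, was lower by 9.66 and Acta1, skeletal actin, by 8.20. Adipocyte genes were lower in 14 of 18 cases and higher in 1 (median −3.22). Adipoq, adiponectin, had 0.0602 to 0.797 CPM in CAFs against 4.02 to 23.0 in bulk (log2 −4.26), and the member that rose was Lpl, lipoprotein lipase (599, 481, 1079 and 968 CPM against 156 to 312, log2 1.68).

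Immune markers were low in the CAFs, most of them near 0. T and NK cell genes were lower in 23 of 25 cases and higher in 1 (median −4.63, or −4.40 with bounds), and summed to 6.91 to 23.7 CPM in CAFs and 57.2 to 89.9 CPM in bulk. Cd3g, a chain of the T cell receptor complex, had no count in any CAF library, which makes it at least 62.2-fold lower than in bulk (1.39 to 3.72 CPM). Cd3e had a count in only 1 CAF library (0.0602 CPM there) against 1.7999 to 5.78 CPM in bulk (log2 −7.70). The member that rose was Klrb1c, the NK receptor NK1.1, at 6.04, 11.01, 1.47 and 3.90 CPM against 0.347 to 1.85 (log2 2.13), whose adjusted p was 0.053 without CAF replicate 4 and 0.051 and 0.23 against bulk batches 2 and 3 alone, and whose groups overlapped. Among 7 B and plasma cell genes tested, 5 were lower and 1 higher, with 3 lower without CAF replicate 3, without bulk replicate 3 or against batch 1 alone. Igkc, the kappa light chain, had 0.322 to 3.41 CPM in CAFs against 33.8 to 129 in bulk (log2 −5.77), and the gene that rose, Cd79a, had 1.52 to 2.80 CPM against 0.0375 to 0.679 (log2 2.75).

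Genes of monocytes and macrophages were lower in 22 of 24 cases and higher in 2 (median −5.29), and summed to 631 to 812 CPM in CAFs against 2750 to 3652 CPM in bulk. Of the 25 genes listed, 11 were under 1 CPM in every CAF library, so the CAF sum rested on the other members, Apoe among them. Csf1r, the receptor that keeps macrophages alive, had 4.07, 3.19, 3.45 and 2.52 CPM in CAFs against 62.7 to 154 in bulk (median 120, log2 −5.15, SE 0.28), and Lyz2, lysozyme, was lower by 5.28. Apoe, apolipoprotein E, had 109, 118, 144 and 108 CPM against 1444 to 2042 (median 1783, log2 −3.87, SE 0.15). The members that rose included Lgmn (log2 0.79), the lysosomal protease legumain, which lay under the fold threshold without CAF replicate 3 (log2 0.65) or bulk replicate 1 (0.70), against batch 2 alone (0.68) and with the length offset (0.69).

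Dendritic cell genes were lower in 13 of 17 cases (median −5.74, or −4.58 with bounds), led by the class II antigen-presenting genes. Cd74, the invariant chain, had 13.1, 16.7, 4.33 and 9.12 CPM in CAFs against 393 to 717 in bulk (log2 −5.74) and H2-Aa 1.29 to 7.76 CPM against 168 to 290 (log2 −5.86). The 3 members that rose do not mark dendritic cells alone: Fscn1, an actin bundler (log2 1.13), Zbtb46, which endothelium also expresses (1.33), and Batf3 (1.08). Batf3 lost its call without any of the 4 CAF libraries or without bulk replicate 1 or 2, at adjusted p-values of up to 0.10, and against bulk batch 2 or 3 alone (adjusted p = 0.11 and 0.067). Neutrophil genes were lower in 5 of 6 tested and mast cell, basophil and eosinophil genes in 10 of 12, with S100a8 at 0.344 to 0.921 CPM in CAFs against 23.2 to 222 in bulk (log2 −7.14) and Cpa3, a mast cell protease, at 0.0602 to 0.230 CPM against 11.3 to 29.7 (log2 −7.17).

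Most pigment cell genes did not pass the test in either direction. Of 22 tested, 1 was higher and 4 lower (median −0.44), and the summed level was 941 to 1412 CPM in CAFs and 836 to 3357 CPM in bulk. Tyr, tyrosinase, had 48.7, 75.8, 91.3 and 64.2 CPM in CAFs against 8.92 to 181 in bulk (median 63.9, log2 −0.17, SE 0.68, adjusted p = 0.84). Dct, dopachrome tautomerase, had 242, 348, 260 and 220 CPM against 44.5 to 1048 (median 343, log2 −0.69, adjusted p = 0.42), and Tyrp1 and Mlana also overlapped (log2 −0.17 and −1.08, adjusted p = 0.86 and 0.31). The bulk melanomas varied so widely in these genes (SE of the log2 fold change 0.68 to 0.88) that moderate differences were not detectable. Slc24a5, a melanosome ion exchanger, missed the threshold with edgeR (122, 145, 53.3 and 57.3 CPM against 1.59 to 74.8, log2 1.97, adjusted p = 0.084) and passed it without WT bulk replicate 5 (log2 2.58, adjusted p = 0.0089) and with DESeq2 (log2 2.02, adjusted p = 0.041). Markers of pigment cells were thus present in all 4 CAF libraries, and their part in the other results was not tested. The genes that fell included Rab38, of melanosome transport (log2 −2.02), and Sox10, which is also on the neural crest list, and the gene that rose was Bace2 (log2 0.85), which did not pass without CAF replicate 2 (log2 0.75) or bulk replicate 4 (0.71, adjusted p = 0.051). Bace2 was at log2 0.24 against bulk batch 3 alone and 0.58 with the length offset (adjusted p = 0.58 and 0.20).

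The promoters of Tyr and Tyrp1 are shown as those of the lineage-defining genes that overlapped between the groups, with the M-box letters CATGTG, the site of the melanocyte factor MITF, or their reverse complement in capitals (GRCm38.p6, same window as above).
Tyr, chr7:87493463-87493762, minus strand: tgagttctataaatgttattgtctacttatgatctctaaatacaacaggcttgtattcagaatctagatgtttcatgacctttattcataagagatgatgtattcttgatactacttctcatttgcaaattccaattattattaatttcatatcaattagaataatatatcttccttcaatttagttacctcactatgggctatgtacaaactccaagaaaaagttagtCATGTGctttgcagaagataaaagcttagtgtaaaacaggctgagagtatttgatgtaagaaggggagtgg
Tyrp1, chr4:80833963-80834262, plus strand: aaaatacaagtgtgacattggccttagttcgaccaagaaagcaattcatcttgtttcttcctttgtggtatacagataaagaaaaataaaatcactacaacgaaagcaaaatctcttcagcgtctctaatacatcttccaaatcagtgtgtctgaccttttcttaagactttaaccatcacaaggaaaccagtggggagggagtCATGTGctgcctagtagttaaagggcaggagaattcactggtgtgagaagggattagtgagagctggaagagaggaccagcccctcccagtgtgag
CATGTG or CACATG occurred in 14.2% of the 32851 promoters. By gene, they occurred in the promoters of 15.9% of 27025 genes and of 7 of the 15 pigment genes with a promoter in the table (of 22).

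Neural crest and Schwann cell genes, in contrast, were mostly lower: 20 of 27, with 2 higher (median −1.94), and a summed level of 1900 to 2481 CPM in CAFs against 4329 to 6397 CPM in bulk. Sox10, the factor that melanocytes and Schwann cells share, had 128, 172, 96.3 and 87.5 CPM in CAFs against 195 to 563 in bulk (median 471, log2 −1.94, SE 0.27). Mbp, a myelin protein, had 3.78, 4.03, 6.31 and 5.36 CPM against 26.5 to 171 (log2 −3.99), and Gfra3, a receptor subunit for artemin, had 5.25, 6.14, 1.15 and 2.26 CPM against 65.3 to 211 (median 171, log2 −5.74, SE 0.44). The members that rose were Ngfr, the low-affinity nerve growth factor receptor, with 140, 104, 143 and 210 CPM against 32.6 to 79.4 (log2 1.46), and Dhh (log2 0.95, adjusted p = 0.031). Dhh overlapped between the groups and lost its call without CAF replicate 1 or 2 or bulk replicate 3 or 4, at adjusted p-values of 0.062 to 0.11. It also missed the threshold without the low-count filter (adjusted p = 0.095) and against bulk batch 2 or 3 alone (log2 0.87 and 0.14, adjusted p = 0.088 and 0.76).

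Endothelial genes were the only list of another cell type whose members rose more often than they fell, with 11 of 21 higher and 1 lower (median 0.75) and a summed level of 1021 to 1436 CPM in CAFs against 543 to 887 CPM in bulk. Cdh5, VE-cadherin, had 116, 116, 106 and 241 CPM in CAFs against 47.4 to 87.3 in bulk (median 54.9, log2 1.29, SE 0.25, adjusted p = 0.0012). CAF replicate 4 had the highest Cdh5, and without it the difference was smaller but still passed (log2 0.89). Prox1 and Flt4, known from lymphatic endothelium, were higher by 2.24 and 1.87, and Flt1, a receptor of VEGF, by 1.47 (166, 182, 52.8 and 108 CPM against 33.1 to 46.1). Against the bulk libraries of batch 3 alone, 4 endothelial genes were higher, and Flt4 and Flt1 did not pass (adjusted p = 0.053 and 0.060). Pecam1 did not pass, with 48.3, 61.7, 62.7 and 122 CPM against 61.6 to 109 (log2 −0.11, adjusted p = 0.71). Egfl7, the member that fell (log2 −1.21, adjusted p = 0.015), overlapped and did not pass without CAF replicate 3 (adjusted p = 0.059) or against batch 2 alone (log2 −0.67, adjusted p = 0.18). The defining markers were well above 0 in every CAF library, and the part of endothelial RNA in the other results was not tested.

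Smooth muscle and pericyte genes gave no single direction. Of 14 contractile genes, 6 were lower and none higher (median −0.55), and of 12 mural genes 3 were higher and 4 lower (median −0.68). The mural counts were near the shares over all genes tested (18.6% higher and 26.1% lower). Acta2, smooth muscle actin, a common marker of myofibroblasts, had 102, 102, 118 and 84.8 CPM in CAFs against 62.6 to 107 in bulk (median 83.5, log2 0.30, adjusted p = 0.16), and Myl9 had 35.8 to 43.2 CPM against 36.1 to 74.4 (log2 −0.43, adjusted p = 0.094). Those that fell included Des, desmin, which skeletal muscle shares (log2 −5.27), Synpo2 (−3.04), Tpm2 (−2.03) and Myh11, the myosin of smooth muscle (−1.74). Notch3, a pericyte receptor, was higher by 0.87 with overlapping groups and did not pass without CAF replicate 4 (log2 0.59, adjusted p = 0.062), against bulk batches 2 and 3 alone (adjusted p = 0.059 and 0.25) or with the length offset (log2 0.66).

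Among dividing-cell genes, more were lower than higher, which also held over all genes tested (18.6% higher and 26.1% lower). Of 32 genes of the G2 and M phases, 16 were lower and none higher (median −0.75), a count that fell to 2 against bulk batch 3 alone, was 27 against batch 1 alone, and was 10, 10, 9 and 8 without CAF replicate 1, 2 or 4 or bulk replicate 4, and of 30 S phase genes 10 were lower and 2 higher (median −0.45), with 4 lower against batch 3 alone. Nusap1, a spindle protein, had 7.41, 5.05, 11.4 and 7.66 CPM in CAFs against 15.4 to 34.3 in bulk (log2 −1.66). The G1/S regulators Ccne1 and E2f1 were those that rose (log2 1.17 and 0.91), whereas E2f2 fell (log2 −1.82). Interferon response genes were higher in 6 (1 against batch 2 alone) and lower in 11 of 35 cases (median −0.37), with Mx2 higher by 1.65, B2m, the light chain of class I molecules, at 426 to 580 CPM against 942 to 1512 (log2 −1.32), and Oas3 lower by 2.49, a call that batches 2 and 3 alone did not give (adjusted p = 0.053 and 0.066). Hypoxia and glycolysis genes were higher in 3 and lower in 7 of 27 cases (median −0.29): Adm, adrenomedullin, was higher by 2.04, and Car12 and Egln3, a carbonic anhydrase and an oxygen sensor, were lower by 4.25 and 4.66. The counts of lower genes in the interferon and hypoxia lists were near the share over all genes tested, so they set neither list apart. Of 12 housekeeping genes, Polr2a rose (log2 1.33), Actb and B2m fell (log2 −1.23 and −1.32), and Gapdh did not pass (log2 −0.36, adjusted p = 0.16). Their median was −0.43, below that of all genes tested, with 3 wholly above and 5 wholly below bulk.

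The macroH2A genes, the targets of the knockout, were also read. In the WT libraries, H2afy2, which encodes macroH2A2, had 26.8, 21.3, 31.2 and 28.0 CPM in CAFs against 7.05 to 11.6 CPM in bulk melanomas (median 9.64, log2 1.50, SE 0.16, adjusted p = 1.65e-05), with no overlap. H2afy, which encodes macroH2A1, had 76.1, 75.2, 75.2 and 65.2 CPM against 80.6 to 107 (median 85.6), and its log2 fold change of −0.31 (SE 0.10, adjusted p = 0.022) stayed inside the fold threshold. Per transcript length, H2afy remained the more abundant of the pair in both groups, at 84.4 and 18.3 TPM for H2afy and H2afy2 in CAFs and 95.8 and 6.38 TPM in bulk. Both genes were still detected in the libraries labelled dKO. H2afy had 59.6 to 67.3 CPM in dKO CAFs and 51.1 to 70.5 CPM in dKO bulk melanomas, and H2afy2 had 13.1 to 17.6 CPM in dKO CAFs and 4.03 to 7.19 CPM in dKO bulk melanomas. CPM of the WT and the dKO libraries were scaled in separate fits, so small differences between genotypes cannot be read from them. On these values, H2afy was below every WT bulk library in dKO bulk. In CAFs it overlapped between the genotypes only through WT CAF replicate 4, at 65.2 CPM. H2afy2 was below every WT CAF library in dKO CAFs and overlapped in bulk. These sums over whole genes do not show which part of each gene the knockout removes, so they are no check of the dKO label.

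The 10 protein-coding genes with the greatest rise, among those with a mean of at least 20 CPM in the higher group and no overlap, were Iqcn, Has1, Fosb, Il6, Cxcl1, Fos, Cxcl5, Gm49450, Ptx3 and Rps12-ps3. Iqcn, at chr8:70703457-70717650, had 65.2, 55.4, 42.0 and 62.8 CPM in CAFs and 5 counts in all over the 6 bulk libraries (log2 11.47). Gm49450 overlaps the tubulin genes Tuba1a and Tuba1b on the same strand and Rps12-ps3 is named as a pseudogene of a ribosomal protein, so the split of their reads is uncertain. All bulk counts of Gm49450 were in WT bulk replicate 3. Its log2 fold change was 6.46, 13.81 without that library and 3.66 against batch 2 alone, where it did not pass (adjusted p = 0.11). Rps12-ps3 (adjusted p = 0.040) lost its call without any of the 4 CAF libraries or bulk replicate 3, 4 or 6, without the low-count filter (adjusted p = 0.13), without the sex term (0.061) and against batch 1 alone (0.087), in the left-out cases at adjusted p-values of up to 0.089, and its log2 fold change was 14.73 without WT bulk replicate 1, the only bulk library with counts, against 5.60 with it. The 10 with the greatest fall were all genes of the cornified epidermis: Hrnr, Rptn and Flg, whose proteins fill the outer layers, Il1f5, which encodes the interleukin-36 receptor antagonist, and the late cornified envelope genes Lce1a1, Lce1a2, Lce1b, Lce1c, Lce1d and Lce1m. All except Flg had no count in any CAF library, so that Hrnr was at least 8065-fold and Rptn at least 7301-fold lower against a floor of 3 counts over the 4 libraries. Flg had 562 to 1750 CPM in bulk and 4 counts in all in CAFs. The Lce1 genes are close paralogs on chromosome 3 that can exchange reads, and their separate bounds (670-fold for Lce1m to 1695-fold for Lce1a1) are uncertain.

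The same contrast in the libraries labelled dKO, with no library in common, called 3276 genes higher (16.9%) and 4953 lower (25.6%) of 19354 tested. Of the genes higher in WT CAFs, 2617 were also higher in dKO CAFs, which is 75.4% of the WT calls and 79.9% of the dKO calls, and 4040 were lower in both (83.1% and 81.6%), while 8 and 3 were called in the opposite direction. The difference of the contrast between genotypes, tested as an interaction over 19678 genes, was called for 18 genes above 0 (0.0915%) and 34 below (0.173%) with edgeR, and for 120 and 159 with DESeq2. Apoe showed the smallest p of these: it had 827, 551, 1254 and 776 CPM in dKO CAFs against 1180 to 1921 CPM in dKO bulk (log2 −0.88), and the difference of the contrasts, dKO minus WT, was 2.99 (SE 0.28, adjusted p = 5.65e-05). No other macrophage gene of the list was called for this difference. For Grem1, a secreted BMP antagonist named after its values were seen, the difference of the contrasts was −3.20 (adjusted p = 0.0030).

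For many groups the dKO contrast gave like counts, with immediate early genes higher in 35 of 37 (median 3.57), fibrillar collagens in 9 of 11 (median 1.98) and keratinocyte genes lower in 29 of 29 (median −7.21). Other counts differed more. In the dKO contrast, genes of the matricellular list were higher in 12 and lower in 2 of 19, and CAF cluster genes higher in 2 of 4. Hair follicle genes were lower in 10 and higher in 1 of 17, and interferon response genes higher in 1 and lower in 13 of 35. Pigment genes had 1 higher and 10 lower of 22 in the dKO contrast (median −1.55), and endothelial genes 1 higher and 3 lower of 21 (median −0.23). No gene of any of these lists was called for the interaction, so a difference between genotypes was not detectable gene by gene. Spp1, which the dKO contrast did not call (log2 0.97), also missed the interaction test (dKO minus WT −2.60, SE 1.37, adjusted p = 0.63).

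**Figure D4:**
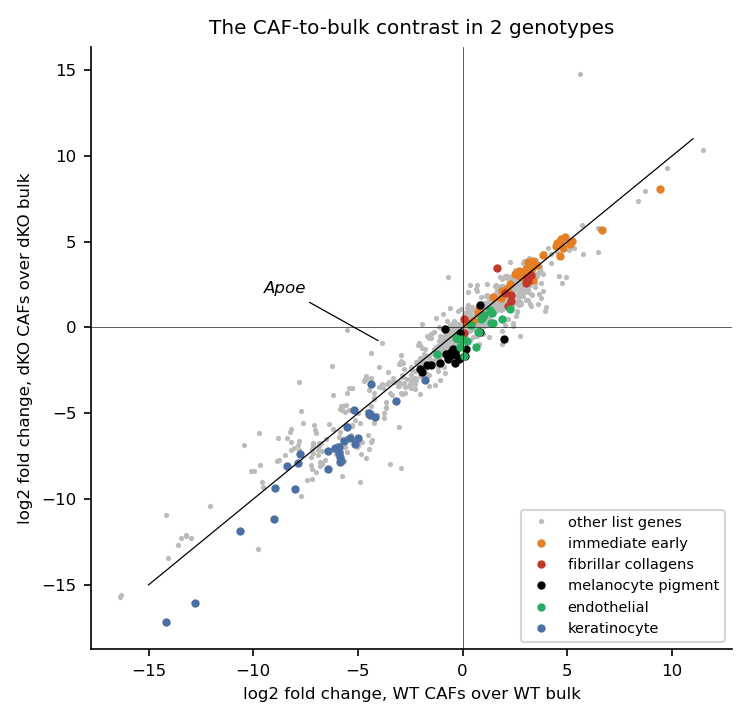
Log2 fold change of dKO CAFs over dKO bulk melanoma (y axis) against that of WT CAFs over WT bulk melanoma (x axis) for 937 list genes, with 5 lists in colour and the diagonal as a line. Apoe lies above the diagonal, at −3.87 in WT and −0.88 in dKO, and values beyond −10 are fitted for genes with few or no counts in CAFs.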

How the data were processed

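The comparison, its members (then taken by label) and the gene lists were chosen with earlier results of these data known. The authors quantified single-end 75-base reads against Gencode M25 transcripts (GRCm38.p6) with Salmon 1.2.1, and deposited estimated counts and TPM for each transcript. Here both were summed per gene with Gencode M21 of GRCm38, which held 139791 of 140992 transcripts (99.15%), and counts were rounded (Python 3.11.15, numpy 2.4.6, pandas 2.3.3). Genes passing filterByExpr (minimum count 10, minimum total 15) were tested with edgeR 4.0.16 in R 4.3.3, using TMM factors, the robust quasi-likelihood test, terms for sex and cell source, and Benjamini-Hochberg adjustment over all genes. CPM compare 1 gene between libraries, and TPM compare genes. The dKO contrast was fitted alike, and the interaction in 1 fit of all 20 libraries. The edgeR fit was tested on simulated data with few genes changed, evenly in both directions. The real changes were many and uneven, so this does not test the normalization.

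The rule for named genes took Pdgfra, both macroH2A genes, the 10 protein-coding genes that changed most in each direction (mean of at least 20 CPM in the higher group, no overlap), and from each of 42 lists the 3 members highest in TPM, the 2 with the greatest change each way and those called against their list, from which the text gives a part and adds abundant or well-known members. The alternatives were DESeq2 1.42.0, RLE factors, no low-count filter, a transcript length offset, protein-coding genes alone, no sex term, nested bulk batches and each library left out. Comparison with the bulk libraries of 1 batch alone was chosen after seeing the data. Promoters came from RefSeq (GRCm38.p6). Some genes and alleles are not reported here.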

Additional observations from a re-analysis of the deposited data

Results flagged for a closer look

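Of 130 groups of values tested for a library far from its group, 8 held one, and chance alone gives about 1 in 20. Summed CPM of mural genes was 1120 in WT CAF replicate 3 against 1506 to 1558 in the other CAF libraries, and 944 in WT bulk replicate 1 against 1270 to 1387 in the other bulk melanomas. The same bulk library also had the lowest sum of neural crest and Schwann cell genes (4329 CPM against 5898 to 6397). Red blood cell genes summed to 1083 CPM in bulk replicate 5 and to 76.1 to 174 CPM in the others. Modulators of TGF-beta, BMP and Wnt signalling summed to 8208 CPM in CAF replicate 3 and to 6592 to 6846 CPM in the others. H2afy had 65.2 CPM in CAF replicate 4 and 75.2 to 76.1 CPM in the others. Gm49450 had 15.9 CPM in bulk replicate 3 and Rps12-ps3 31.4 CPM in bulk replicate 1, and both were at 0 in the other bulk melanomas. Apoe was the gene named by the rule whose contrast differed between genotypes, by 2.99 on the log2 scale (dKO minus WT, SE 0.28, adjusted p = 5.65e-05).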

How the results depend on the processing

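Under every alternative for the WT contrast, the counts of called genes over all genes tested stayed within 1.5 times the values given above. Of the counts of called list members, 1614 stayed within 1.5 times and 66 (of 19 counts) did not, most of them counts of few genes or of the dividing-cell, red blood cell and mitochondrial lists. With each library left out, the counts over all genes tested ran from 3272 to 3542 higher and from 4678 to 4918 lower genes, and beyond log2 2 from 1230 to 1355 and from 2667 to 2875. The interaction moved with the test: DESeq2 called 120 and 159 genes, against 18 and 34 with edgeR, and beyond log2 2 it called 66 and 87 against 15 and 22. Of the log2 fold changes of named genes recomputed under the alternatives, 3823 kept direction and call, 53 (of 18 genes) lost the call, 5 (of 1 gene, Slc24a5) gained it and 13 (of 4 genes) changed sign, and none of these 4 genes had been called. S100a4 was at −0.071 against bulk batch 1, and between −0.0042 and 0.35 with 1 library left out. Tyr was at 0.17 against batch 1 and 0.34 with the length offset, and between −0.37 and 0.096 with 1 library left out. Tyrp1 was at 0.074 against batch 1 and 0.23 against batch 2, and between −0.44 and 0.24 with 1 library left out. Pecam1 was at 0.11 against batch 3, and between −0.48 and 0.028 with 1 library left out. The cause was not tested. No paired analysis was possible because the CAFs and the bulk melanomas came from different mice, and replicate numbers were given in the order of the samples and pair nothing. Genes without counts in CAFs have fold changes that depth limits, and 4 against 6 libraries limit what the variable pigment genes can show.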
